A study of Paraphaeosphaeria sporulosa with 23 samples.

Results

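The transcripts described here are those that the fungus Paraphaeosphaeria sporulosa held at a very high level under every condition sampled. A gene was included if it carries a RefSeq locus tag and its mean reached 1000 CPM, a gene's reads scaled to a common library total, in each of 5 groups of cultures. Of 14844 genes with such tags, 20 met this rule. Their own levels chose them, so those levels are given as description, and the rule bounds what the genes can do: one whose mean dropped under 1000 CPM in any group is not among them, however abundant elsewhere. The RNA came from whole cultures of strain AP3s5-JAC2a, a filamentous ascomycete, kept in still flasks of yeast extract medium for 18 days after a preculture of 14 days. Treated flasks then received 0.1 mM sodium selenite, and that time was day 0. There were 3 libraries of controls at day 0, 6 of controls and 5 with selenite at day 1, and 5 of controls and 4 with selenite at day 6, all made from polyadenylated RNA of the same strain and medium and all carrying the same batch label. Whether replicates were separate flasks is not stated, so p-values measure the spread between libraries. In RNA of whole cultures, fewer cells of a kind and less RNA per cell cannot be told apart.

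Most messenger RNA of a growing eukaryotic cell comes from a small share of its genes. In fungi the most abundant messages usually include those for ribosomal proteins, translation factors, glycolytic enzymes, histones, chaperones and small secreted or cell wall proteins. Selenite, an oxyanion of selenium(IV), reacts inside cells with thiols such as glutathione, and many fungi reduce it to elemental selenium. A deposited table pairs some genes with UniProt identifiers, which were not used here. Neither the files nor the reference gene table gives a product name for the locus tags, so no role is given to any of the 20 genes, and no marker of a cell type could be set against them. They are ordered below by level and by how they moved. All 20 matched a protein-coding gene of the RefSeq annotation, assembly Parsp1, with the same start as in the deposited count table, from which the positions below are taken.

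The 23 libraries held 23282564 to 32681888 reads in genes, so each of the 20 genes rested on at least 8300 reads in every library. Levels are given in CPM. Changes are log2 fold changes of scaled CPM, which is CPM divided by a TMM factor, a trimmed-mean correction for a few genes taking much of a library, and errors beside them are standard errors. The factors were 0.557 to 0.684 in selenite libraries of day 1 and 0.775 to 0.908 in controls of that day, so scaling raises the former against the latter. With library size alone, the median change of all tested genes at day 1 moved by −0.28. That of the 20 genes was then 0.24 in place of 0.66. Control day 6 replicates 1 and 3 stood apart from the other 3 controls of their day in the genes with the most reads. Where a call rests on them, it is given with and without them.

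**Figure D1:**
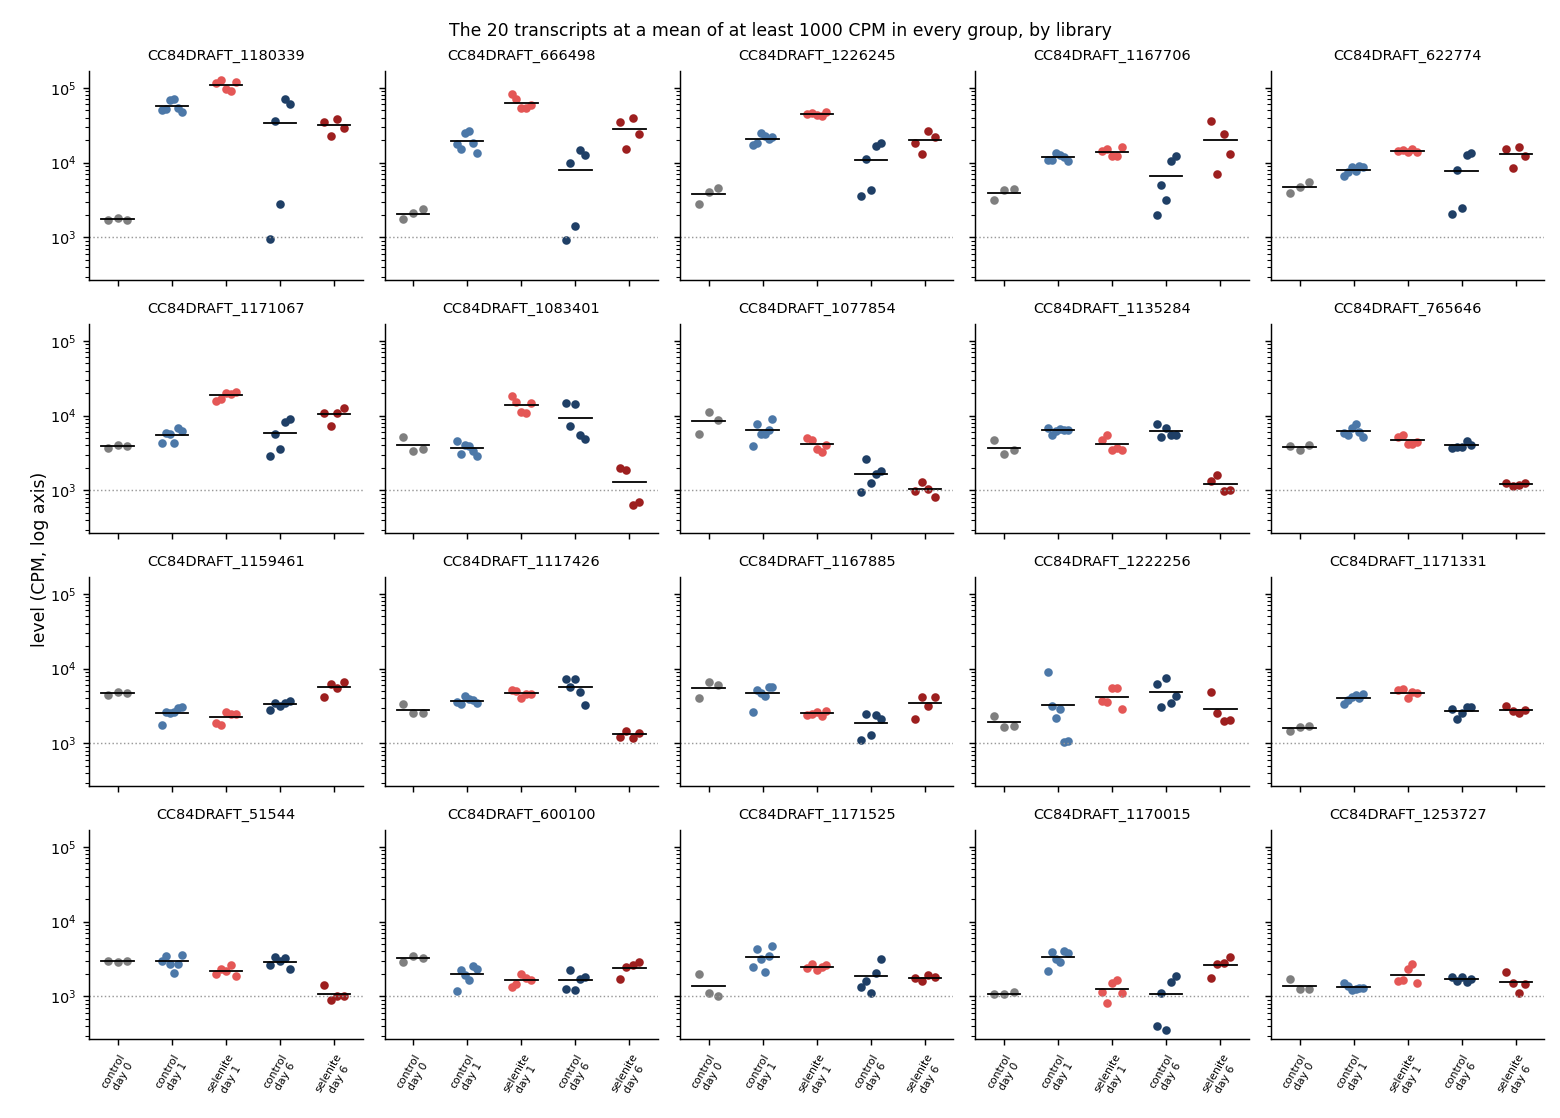
Level of each of the 20 genes in CPM (log axis) in each of the 23 libraries, by group. Points are libraries, horizontal lines are group means and the dotted line is 1000 CPM. CC84DRAFT_1180339 (top left) ran from 941 to 126579.6 CPM, and control day 6 replicates 1 and 3 lay far below the other 3 controls of that day.

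In all, 252 of the 15164 genes with levels, with or without a locus tag, reached a mean of 1000 CPM in at least 1 group. Of these, 107 reached it in 1 group, 72 in 2, 31 in 3, 22 in 4 and 20 in all 5. The level was reached by 126 genes in controls at day 0, 110 in controls and 101 with selenite at day 1, and 85 in controls and 110 with selenite at day 6. The 20 genes were thus 15.9% to 23.5% of the genes at this level in a group. Among the 22 genes that reached it in 4 groups, 13 missed it with selenite at day 6, 4 in controls at day 6, 4 with selenite at day 1 and 1 in controls at day 0. The genes just inside the rule were CC84DRAFT_1077854, with a lowest group mean of 1036 CPM with selenite at day 6, CC84DRAFT_1170015, with 1063 CPM in controls at day 6, and CC84DRAFT_51544, with 1092 CPM with selenite at day 6. Just outside it were CC84DRAFT_1097616 (956 CPM, selenite day 6), CC84DRAFT_1124275 (923 CPM, control day 0) and CC84DRAFT_1222330 (907 CPM, selenite day 1). In scaled CPM 14 of the 20 genes would meet the rule, and CC84DRAFT_1083401, CC84DRAFT_1077854, CC84DRAFT_1135284, CC84DRAFT_765646, CC84DRAFT_51544 and CC84DRAFT_1170015 would miss it with lowest group means of 755 to 993. In single libraries 13 of the 20 genes were at 1000 CPM or more throughout. The other 7 dipped under it in 1 to 3 libraries, the deepest being CC84DRAFT_1170015 with 356 CPM in control day 6 replicate 3.

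The share of all reads that the 20 genes took was smallest at day 0 and largest with selenite at day 1. At day 0 the 20 genes held 6.68% ± 0.362 of the reads (SD, n = 3). The share was 17.7% ± 1.76 in controls at day 1 (n = 6) and 32.1% ± 2.88 with selenite (n = 5). At day 6 it was 12.2% ± 5.20 in controls (n = 5) and 15.4% ± 3.66 with selenite (n = 4). The genes with the most reads, CC84DRAFT_1180339, CC84DRAFT_666498 and CC84DRAFT_1226245, together held 0.763% ± 0.125 at day 0, 9.77% ± 1.74 in controls and 21.8% ± 2.60 with selenite at day 1, and 5.30% ± 4.51 in controls and 7.99% ± 2.29 with selenite at day 6. The summed share of the remaining 17 genes varied much less, at 5.91% ± 0.251 at day 0, 7.91% ± 0.328 and 10.2% ± 0.317 at day 1, and 6.89% ± 0.760 and 7.39% ± 1.56 at day 6, control before selenite. Some single genes among the 17 varied more than this sum. The highest group mean of CC84DRAFT_1083401 was 10.7 times its lowest. In control day 6 replicates 1 and 3 the leading 3 genes held 0.542% and 0.861%, close to the day 0 libraries, against 5.75% to 10.2% in the other 3 controls of that day. Since the shares of a library sum to a fixed total, reads taken by these genes lower the CPM of every other gene.

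**Figure D2:**
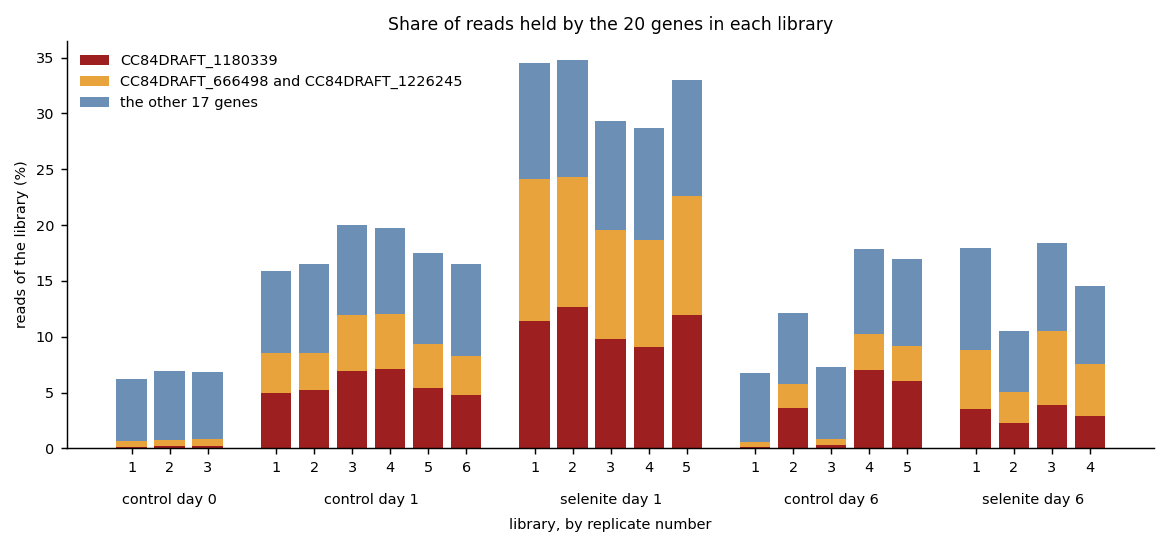
Percent of each library's reads held by CC84DRAFT_1180339 (red), by CC84DRAFT_666498 and CC84DRAFT_1226245 (orange) and by the other 17 genes (blue), for 23 libraries by group and replicate number. The stacked bars reach 6.26% in the lowest library and 34.8% in the highest, and the blue part stays between 5.48% and 10.5%.

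With selenite, the share of the 20 genes called was close to that of all genes tested at day 6. At day 1 it was lower in the main fit, and the count depended on the fit. Against controls of the same day, 10 of the 20 genes passed the threshold at day 1 (limma adjusted p under 0.05), 9 higher with selenite and 1 lower. Of all 13676 genes tested 62.5% passed, 30.8% higher and 31.7% lower. At day 6 another count of 10 passed, 5 higher and 5 lower, against 48.6% of all genes (27.1% higher, 21.5% lower). The selenite change differed between the days for 9 of the 20 (2 in the positive and 7 in the negative direction), against 43.4% of all genes (22.7% and 20.7%). The median log2 fold change of the 20 was 0.66 at day 1 and 0.48 at day 6, beside −0.02 and 0.12 over all genes tested. With library size alone 5 genes were called higher and 3 lower at day 1, and 5 of the 20 log2 fold changes of that day turned sign. A fit of the day 1 groups alone called 12 of the 20 genes, 11 higher and 1 lower. These counts describe genes that were chosen by level, and a strong fall to under the rule's level could not be among them. Without control day 6 replicates 1 and 3, 6 genes were called at day 6, 1 higher and the same 5 lower, and a fit of the day 6 groups alone called 6 as well, 1 higher and 5 lower. In both cases CC84DRAFT_666498, CC84DRAFT_1167706, CC84DRAFT_1159461 and CC84DRAFT_1167885 lost their day 6 calls. For the difference between days, leaving out those replicates ended the calls of CC84DRAFT_1167885 (1.03, limma adjusted p 0.0929) and CC84DRAFT_1222256 (−1.49, limma adjusted p 0.0713) and added CC84DRAFT_1171067 (−1.65, limma adjusted p 0.0203, against −1.07 ± 0.64, limma adjusted p 0.179, with all libraries).

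**Figure D3:**
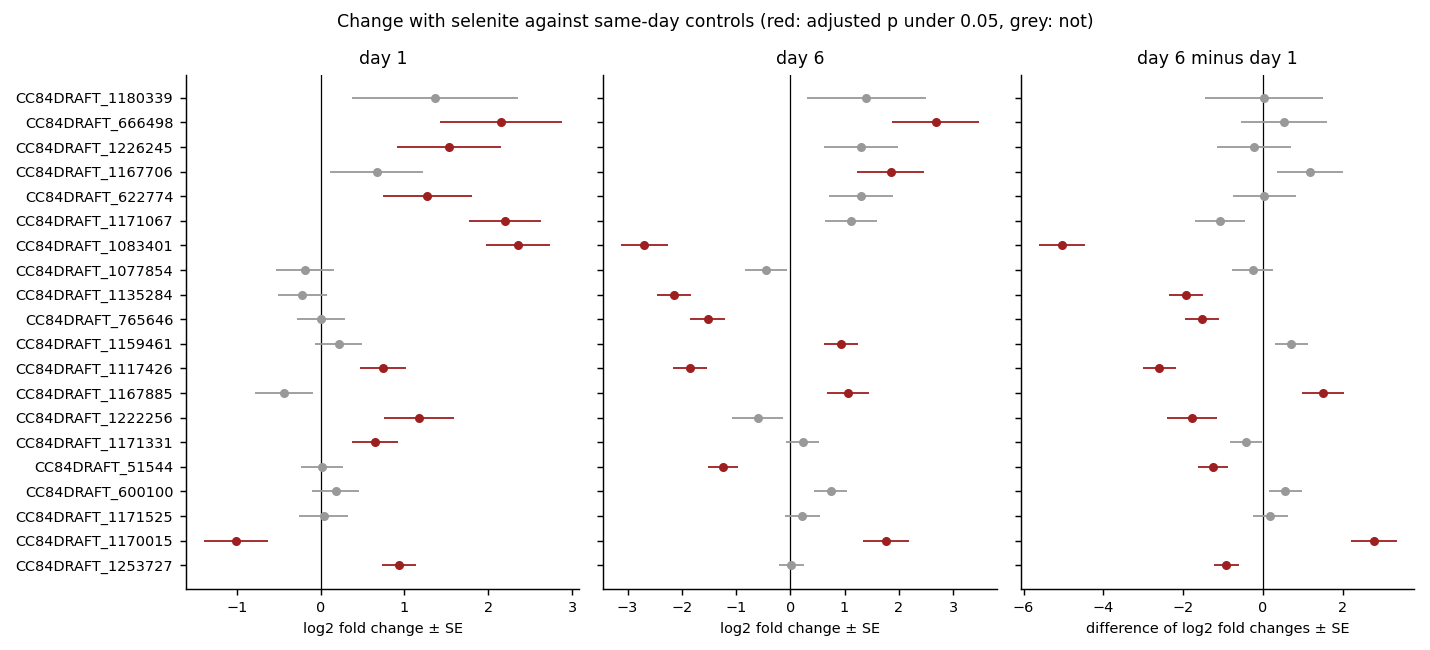
Log2 fold change of scaled CPM (± SE) with selenite against controls of the same day, at day 1 (left) and day 6 (middle), and the difference between the days (right), for the 20 genes in order of mean level. Red marks an adjusted p under 0.05 in limma. CC84DRAFT_1083401 went from 2.36 ± 0.38 at day 1 to −2.69 ± 0.43 at day 6.

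CC84DRAFT_1180339 had the highest group mean of all genes in 4 groups and was 56th at day 0. It lies on NW_017253371.1 from 86589 to 87170 on the minus strand, with 1 exon and 582 exon bases. Its level was 1697, 1804 and 1733 CPM at day 0. Controls of day 1 ran from 47452 to 71035 with a median of 53207 CPM, and the selenite libraries of that day had 114551, 126579.6, 97939, 90454 and 119411 CPM. At day 6 the controls had 941, 36309, 2839, 70351 and 60136 CPM and the selenite libraries 34967, 22755, 38482 and 29348 CPM. All selenite libraries of day 1 thus lay above all controls of that day. At day 6 control replicates 1 and 3 lay far below the selenite libraries, replicate 2 among them and replicates 4 and 5 above them. From day 0 to day 1 the gene rose in controls by 5.54 ± 1.16 on the log2 scale (limma adjusted p 0.000763), the largest change of any of the 20 genes in the 5 comparisons. The selenite changes of 1.36 ± 0.99 at day 1 and 1.40 ± 1.10 at day 6 did not pass (limma adjusted p 0.239 and 0.304). The gene's own residual SD, 1.43 on the log2 scale over all groups, was at percentile 99.8 of all genes tested. The errors are not set by this SD alone, since limma draws each gene's variance towards a trend with level. In a fit of the day 1 groups alone the change was 1.36 ± 0.51 and passed (limma adjusted p 0.0329). A fit of the day 6 groups alone gave 1.40 ± 1.62, which did not pass (limma adjusted p 0.498). At day 6 it turned to −0.70 without control replicates 1 and 3 and to −0.02 in edgeR's quasi-likelihood test, neither of which passed. Likewise the control change from day 0 to day 6, 2.63 ± 1.19 (limma adjusted p 0.121), was 4.73 without those replicates (limma adjusted p 0.000545).

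CC84DRAFT_666498 and CC84DRAFT_1226245 had their lowest group means at day 0, rose in controls by day 1 and were higher still with selenite on that day. By their day 0 means they ranked 42nd and 21st of all genes. CC84DRAFT_666498 lies on NW_017253363.1 from 2629812 to 2631440 on the plus strand, with 1 exon and 1629 exon bases. It had 1739, 2097 and 2414 CPM at day 0. Day 1 controls ranged from 13651 to 26296 with a median of 18073 CPM, below every selenite library (81515, 69947, 54297, 53926 and 58121 CPM). Day 6 controls had 921, 9976, 1404, 14834 and 12656 CPM and selenite libraries 34724, 15021, 40109.6 and 24511 CPM. In CPM the selenite libraries lay above the controls on both days, the lowest at day 6 only just. Once scaled, the groups overlapped at day 6. The rise was 3.71 ± 0.85 in controls to day 1 (limma adjusted p 0.00174) and 2.15 ± 0.73 with selenite at day 1 (limma adjusted p 0.0122). The day 6 rise of 2.68 ± 0.80 (limma adjusted p 0.00774) was 1.21 and no longer passed without control replicates 1 and 3 (limma adjusted p 0.125). It did not pass in a fit of the day 6 groups alone either (limma adjusted p 0.0661). In controls the change from day 0 to day 6, 0.91 ± 0.87 (limma adjusted p 0.515), was 2.37 and passed without those replicates (limma adjusted p 0.0221).

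CC84DRAFT_1226245 lies on NW_017253360.1 from 2996894 to 2999243 on the minus strand, with 3 exons and 2242 exon bases. Its day 0 levels were 2821, 4026 and 4553 CPM. The day 1 controls spanned 17337 to 24855 with a median of 21128 CPM, and the selenite libraries had 44818, 46593, 43533, 42006 and 48240.3 CPM, again without overlap. Day 6 gave 3560.0, 11250.2, 4368, 16876 and 18541 CPM in controls and 18342, 12975, 26590.4 and 21857 CPM with selenite. There the groups overlapped, with control replicates 1 and 3 lowest. The gene rose by 3.002 ± 0.72 in controls to day 1 and by 1.53 ± 0.62 with selenite at day 1 (limma adjusted p 0.00272 and 0.0337). The latter call was lost without control replicate 1 or 2, without selenite replicate 1, 2 or 5, and without the filter on low values, with adjusted p-values of 0.00164 to 0.0675 over all alternatives. The day 6 change of 1.31 ± 0.68 did not pass (limma adjusted p 0.118).

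CC84DRAFT_1167706, CC84DRAFT_622774 and CC84DRAFT_1171067 had the next highest mean levels. CC84DRAFT_1167706 lies on NW_017253369.1 from 510818 to 513726 on the plus strand, with 1 exon and 2909 exon bases. It had 3139, 4269 and 4426 CPM at day 0. At day 1 controls had 10644 to 13436 with a median of 11484 CPM and selenite libraries 14446, 15135, 12132, 12178 and 16320.1 CPM. At day 6 the values were 1969, 5085, 3192, 10531 and 12197 CPM in controls and 35876, 6956, 24206 and 13022 CPM with selenite, where replicate 1 had the highest level of the gene in any library and replicate 2 lay within the controls. The rise with selenite at day 6, 1.85 ± 0.62 (limma adjusted p 0.0154), was lost in a fit of the day 6 groups alone, without selenite replicate 1, without control replicate 1 and without control replicates 1 and 3 together (1.04, limma adjusted p 0.147; over all alternatives 0.00211 to 0.147). In controls it rose by 2.11 ± 0.65 from day 0 to day 1 (limma adjusted p 0.0165). That call was lost without control day 0 replicate 1 and in a fit with the replicate number as a block.

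CC84DRAFT_622774 lies on NW_017253363.1 from 825900 to 828597 on the minus strand, with 1 exon and 2698 exon bases. Levels at day 0 were 3973, 4679 and 5502 CPM. Controls of day 1 lay at 6530.3 to 9063 with a median of 8151 CPM, and selenite libraries were tightly grouped above them at 14275, 14923, 13731, 15299 and 13920.3 CPM. Day 6 controls had 2074, 7974, 2443, 12504 and 13424 CPM, with replicates 1 and 3 lowest, and selenite libraries 15424, 8359.7, 16337 and 12298 CPM, overlapping them. The day 1 rise of 1.27 ± 0.53 (limma adjusted p 0.039) was lost in 11 of 21 alternatives, among them library size alone and leaving out any 1 selenite library, with values of 0.86 to 1.46. For CC84DRAFT_1171067, on NW_017253360.1 from 3266236 to 3267261 on the plus strand, with 3 exons and 918 exon bases, day 0 levels were 3653, 3994 and 3958 CPM. Its day 1 controls had 4247 to 6744 with a median of 5752 CPM, well below the selenite libraries at 15728, 16841, 20133, 19754 and 21005 CPM. At day 6 controls had 2877, 5607, 3601, 8305 and 8925 CPM and selenite libraries 10683, 7299.9, 10948 and 12681 CPM, of which 1 lay within the controls. The rise at day 1 was 2.20 ± 0.43 (limma adjusted p 8.14e-05) and was called in every alternative, while 1.12 ± 0.47 at day 6 narrowly missed the threshold (limma adjusted p 0.0534).

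CC84DRAFT_1083401 moved in opposite directions on the 2 days, the widest such turn among the 20 genes. It lies on NW_017253361.1 from 870212 to 870690 on the plus strand, with 3 exons and 375 exon bases. Day 0 levels were 5138, 3337 and 3614 CPM. At day 1 controls had 2857 to 4637 with a median of 3652 CPM and selenite libraries 18174, 15105, 11167, 10963 and 14835 CPM. At day 6 controls had 14807, 7201, 14148, 5569.8 and 4935 CPM and selenite libraries 1993, 1901, 645 and 699.9 CPM. The groups did not overlap on either day, with selenite above controls at day 1 and below them at day 6. The gene rose by 2.36 ± 0.38 at day 1 and fell by 2.69 ± 0.43 at day 6 (limma adjusted p 8.13e-06 and 1.16e-05). Its difference between days, −5.05 ± 0.57 (limma adjusted p 2.6e-07), ranged from −5.31 to −4.61 over 31 alternatives and was called in all of them. Control day 6 replicates 1 and 3 were the highest of their group for this gene, and without them the day 6 value was −2.25 (limma adjusted p 9.11e-05).

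The other genes that fell with selenite at day 6 were CC84DRAFT_1135284, CC84DRAFT_1117426, CC84DRAFT_765646 and CC84DRAFT_51544. For each of them every selenite library of day 6 lay below every control of that day and below every library of the other groups. CC84DRAFT_1135284, on NW_017253360.1 from 3770303 to 3771639 on the minus strand, with 2 exons and 1282 exon bases, had 7797, 5175, 6762, 5440.5 and 5506 CPM in day 6 controls and 1323, 1630.1, 979 and 1000.03 CPM with selenite. It fell by 2.14 ± 0.32 (limma adjusted p 4.93e-06). At day 0 it had 4724, 3040.2 and 3461 CPM, at day 1 5577 to 6839.9 with a median of 6464 CPM in controls and 4649.6, 5460.4, 3452, 3721 and 3485 CPM with selenite. These day 1 levels did not overlap in CPM but did once scaled, and the change of −0.22 ± 0.29 did not pass (limma adjusted p 0.53).

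CC84DRAFT_1117426, on NW_017253363.1 from 1861633 to 1863693 on the minus strand, with 3 exons and 1958 exon bases, had 7240.1, 5654, 7166, 4822 and 3217 CPM in day 6 controls and 1205, 1484, 1196 and 1393 CPM with selenite, a fall of 1.85 ± 0.31 (limma adjusted p 2.01e-05). At day 1 it was 3349 to 4312 with a median of 3671 CPM in controls and 5129.6, 5049, 4090.5, 4512 and 4556 CPM with selenite, overlapping in CPM. The day 1 rise of 0.74 ± 0.28 (limma adjusted p 0.0218) was 0.33 and not called with library size alone, and was lost without selenite day 1 replicate 1 or 2. The difference between days was −2.59 ± 0.41 (limma adjusted p 1.99e-05). Day 0 levels were 3349, 2551 and 2557 CPM, the highest of them level with the lowest day 1 control.

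CC84DRAFT_765646 had the tightest day 6 levels with selenite of the 4, at 1273, 1142, 1189 and 1273 CPM against 3661, 3830.4, 3840.0, 4589 and 4097 CPM in controls. It lies on NW_017253364.1 from 2967884 to 2969315 on the plus strand, with 1 exon and 1432 exon bases. From start to end it overlaps a gene of the same strand with 0.725 CPM, CC84DRAFT_770821, by 607 bases. Whether exons of both genes share those bases was not checked, so the assignment of reads there is uncertain. The fall was 1.53 ± 0.32 (limma adjusted p 0.000299). Its other levels were 3901, 3502 and 4014 CPM at day 0, 5228 to 7680.4 with a median of 5979 CPM in day 1 controls and 5112, 5483, 4131, 4157 and 4421 CPM with selenite at day 1. CC84DRAFT_51544, on NW_017253360.1 from 1791261 to 1792432 on the minus strand, with 2 exons and 1116 exon bases, had 2603, 3369, 2981, 3269 and 2321 CPM in day 6 controls and 1441, 895, 1014 and 1017 CPM with selenite, a fall of 1.24 ± 0.28 (limma adjusted p 0.000619). It had nearly equal levels at day 0, 2933, 2909 and 2943 CPM, and its day 1 levels of 2049.5 to 3589 with a median of 2865 CPM in controls and 1999, 2327, 2154, 2626 and 1858 CPM with selenite overlapped. All 5 falls at day 6, with that of CC84DRAFT_1083401, were called in every alternative, and in each of these 5 genes the difference between days passed as well.

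CC84DRAFT_1170015 went the other way round, lower with selenite at day 1 and higher at day 6. It lies on NW_017253377.1 from 125253 to 127461 on the minus strand, with 4 exons and 1746 exon bases. Day 0 levels were 1079.9, 1066 and 1129 CPM. Controls of day 1 had 2157 to 4041 with a median of 3494 CPM and selenite libraries 1153, 825, 1496, 1648 and 1112 CPM. At day 6 controls had 406, 1116, 356, 1568 and 1869 CPM and selenite libraries 1769, 2699.6, 2769 and 3403 CPM. In CPM the groups did not overlap at day 1, and at day 6 1 selenite library lay within the controls. It fell by 1.01 ± 0.38 at day 1 (limma adjusted p 0.0252), a call lost with DESeq2's size factors and without selenite replicate 2 or 5 (adjusted p 0.000702 to 0.0642 over all alternatives). The rise of 1.77 ± 0.43 at day 6 (limma adjusted p 0.00129) was 0.90 without control replicates 1 and 3 and still passed (limma adjusted p 0.0265), the only day 6 rise that did. Its difference between days was 2.78 ± 0.57 (limma adjusted p 0.000367).

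CC84DRAFT_1167885 and CC84DRAFT_1159461 were also called higher with selenite at day 6. CC84DRAFT_1167885, on NW_017253369.1 from 1065433 to 1067175 on the minus strand, with 5 exons and 1296 exon bases, had 1095, 2461, 1299, 2434 and 2099.8 CPM in day 6 controls and 2096, 4158, 3176 and 4237 CPM with selenite, and the groups overlapped. The rise of 1.07 ± 0.39 (limma adjusted p 0.0243) was lost in a fit of the day 6 groups alone, without control replicate 1 or 3 or both, and without selenite replicate 2 or 4 of that day (adjusted p 0.00639 to 0.218 over all alternatives). Its difference between days, 1.51 ± 0.52 (limma adjusted p 0.0214), was also lost without selenite day 6 replicate 4. In controls it fell from 4059, 6677 and 5993 CPM at day 0, by 1.91 ± 0.42 (limma adjusted p 0.00265). Its day 1 levels were 2657 to 5595 with a median of 4950.4 CPM in controls and 2405, 2478, 2649, 2338 and 2708 CPM with selenite, a change of −0.44 ± 0.35 that did not pass (limma adjusted p 0.283).

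CC84DRAFT_1159461, on NW_017253360.1 from 2634441 to 2636542 on the plus strand, with 5 exons and 1633 exon bases, had 2773, 3519, 3158, 3504 and 3677 CPM in day 6 controls and 4204, 6169.7, 5515 and 6703 CPM with selenite, all above the controls. The rise was 0.93 ± 0.31 (limma adjusted p 0.0154) and was lost in a fit of the day 6 groups alone, without selenite replicate 4 and without control replicates 1 and 3 together (0.74, limma adjusted p 0.0665; over all alternatives 0.00124 to 0.145). At day 0 it had 4408, 4852 and 4753 CPM. Day 1 gave 1749 to 3061 with a median of 2614 CPM in controls and 1897, 1755, 2596, 2461 and 2498 CPM with selenite, which overlapped. Both lay below day 0 in CPM, but the scaled levels of controls at day 1 and day 0 overlapped and the change of −0.35 ± 0.33 did not pass (limma adjusted p 0.47).

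CC84DRAFT_1253727 had the steadiest level by group in CPM, with a highest group mean 1.47 times its lowest, and was called at day 1. In scaled CPM that ratio was 2.68, and CC84DRAFT_1159461 (1.92) and CC84DRAFT_600100 (2.41) were steadier. It lies on NW_017253360.1 from 289084 to 289788 on the plus strand, with 3 exons and 594 exon bases. The levels were 1689.5, 1244 and 1252 CPM at day 0, 1217 to 1519.7 with a median of 1294 CPM in day 1 controls and 1583, 1632, 2313, 2742 and 1513 CPM with selenite at day 1. At day 6 they were 1826, 1589.6, 1837, 1577 and 1705 CPM in controls and 2114, 1508, 1126 and 1485 CPM with selenite. Its groups overlapped in CPM on both days, though no longer at day 1 once scaled. The day 1 rise of 0.94 ± 0.21 (limma adjusted p 0.00032) was 0.52 with library size alone and was called in every alternative.

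Group means of CC84DRAFT_600100, CC84DRAFT_1171525, CC84DRAFT_1159461 and CC84DRAFT_1222256 had the next smallest ratios of highest to lowest in CPM, 1.96, 2.47, 2.52 and 2.57. CC84DRAFT_600100, on NW_017253362.1 from 3110474 to 3112542 on the plus strand, with 3 exons and 1899 exon bases, was highest at day 0, 2899, 3504 and 3243 CPM, and fell by 1.29 ± 0.34 in controls to day 6 (1253, 2241, 1203, 1732 and 1833 CPM; limma adjusted p 0.00852), a call lost in a fit of those groups alone, without control day 0 replicate 2 or 3 and without control day 6 replicates 1 and 3. Day 1 levels were 1187 to 2530.2 with a median of 2084 CPM in controls and 1321, 1455, 2014, 1754 and 1678 CPM with selenite. The day 6 selenite libraries had 1708, 2454, 2604 and 2864 CPM, and the change of 0.74 ± 0.31 missed the threshold (limma adjusted p 0.0502). CC84DRAFT_1171525, on NW_017253360.1 from 4609378 to 4611493 on the minus strand, with 2 exons and 1995 exon bases, rose in controls from 1986, 1098 and 1009 CPM at day 0 to 2100.1 to 4649 with a median of 3306 CPM at day 1, by 1.84 ± 0.34 (limma adjusted p 0.000252), and was called in no other comparison. Its selenite libraries of day 1 had 2379, 2684, 2262, 2484 and 2663 CPM. At day 6 controls had 1348, 1591, 1109, 2032 and 3200.2 CPM and selenite libraries 1756, 1584, 1926 and 1842 CPM, within the range of the controls.

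CC84DRAFT_1222256, the shortest of the 20 genes, had a ratio of 8.86 between its highest and lowest day 1 control. It lies on NW_017253372.1 from 133096 to 133422 on the plus strand, with 2 exons and 264 exon bases. Day 1 controls ran from 1030.0 to 9127 with a median of 2558 CPM, replicate 1 being the highest and replicates 5 and 6 the lowest, and this range took in the 5 selenite libraries (3703, 3539, 5581, 5433 and 2896 CPM). The day 1 rise of 1.17 ± 0.42 (limma adjusted p 0.0182) was 0.82 in edgeR's quasi-likelihood test and did not pass there (adjusted p 0.0806), nor with library size alone or without control replicate 5 or 6 (over all alternatives adjusted p was 0.00085 to 0.117). Day 0 levels were 2343, 1670.3 and 1701 CPM, and at day 6 controls had 6283, 3035, 7389, 3497 and 4249 CPM and selenite libraries 4834, 2587, 1993 and 2058 CPM, which overlapped. CC84DRAFT_1171331, on NW_017253360.1 from 4067694 to 4068324 on the minus strand, with 2 exons and 582 exon bases, had 1469.8, 1646 and 1696 CPM at day 0. It reached 3378 to 4523 with a median of 4117 CPM in controls and 5122, 5266, 4003, 4863 and 4677 CPM with selenite at day 1, and had 2916, 2095, 2561, 3074 and 3102 CPM and 3147, 2726, 2539 and 2833 CPM at day 6. Of its calls only the control rise to day 1, 1.86 ± 0.32 (limma adjusted p 9.61e-05), was called in every alternative. The day 1 selenite rise of 0.65 ± 0.27 (limma adjusted p 0.0406) was lost in 9 of 21 alternatives. Among them were library size alone (0.23) and leaving out control replicate 1, 2 or 5 or selenite replicate 1, 2, 4 or 5. Over all alternatives its adjusted p was 0.00562 to 0.354.

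CC84DRAFT_1077854 was the 6th highest of all genes at day 0 and was called lower in controls by day 6. It lies on NW_017253360.1 from 2843749 to 2845902 on the plus strand, with 6 exons and 1686 exon bases, the most exons of the 20. From 5605, 11147 and 8657 CPM at day 0 it went to 960.3, 2643, 1267, 1683 and 1834 CPM in controls of day 6, without overlap, a fall of 2.66 ± 0.42 (limma adjusted p 0.000173). Day 1 controls ran from 3911 to 8992 with a median of 6061 CPM. Selenite libraries had 5068, 4660.1, 3573, 3270.5 and 4107 CPM at day 1 and 997, 1283, 1054 and 809.6 CPM at day 6, overlapping the controls of either day. The selenite changes of −0.19 ± 0.35 and −0.45 ± 0.39 did not pass (limma adjusted p 0.665 and 0.358).

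In controls, 10 of the 20 genes were called higher at day 1 than at day 0 and none lower, beside 27.8% of all genes tested (15.01% higher, 12.8% lower). From day 0 to day 6, 3 genes were called, all lower, beside 21.1% of all genes (9.75% higher, 11.4% lower). Without control day 6 replicates 1 and 3, 4 genes were called in that comparison, CC84DRAFT_1180339 and CC84DRAFT_666498 higher and CC84DRAFT_1077854 and CC84DRAFT_1167885 lower. The comparisons share the day 0 libraries. The genes that rose by day 1 were CC84DRAFT_1180339, CC84DRAFT_666498, CC84DRAFT_1226245, CC84DRAFT_1167706, CC84DRAFT_1170015, CC84DRAFT_1171331, CC84DRAFT_1171525, CC84DRAFT_1135284, CC84DRAFT_765646 and CC84DRAFT_1117426. CC84DRAFT_1135284 rose by 1.31 ± 0.34, CC84DRAFT_765646 by 1.22 ± 0.33 and CC84DRAFT_1117426 by 0.93 ± 0.32 (limma adjusted p 0.00469, 0.00777 and 0.0322). The call of CC84DRAFT_1117426 was lost in 7 of 19 alternatives, among them library size alone (0.41) and leaving out any 1 day 0 library (adjusted p 0.00177 to 0.262 over all alternatives). The median log2 fold change of the 20 genes was 1.11 at day 1 and 0.13 at day 6, beside −0.02 and 0.04 over all genes. With library size alone, which moved the median of all genes by −0.40 and 0.22, the calls were 9 higher and 2 lower at day 1, and 3 higher and 3 lower at day 6. The median of the 20 genes was then 0.59 at day 1 and 0.42 at day 6. The lowest group mean was that of day 0 for 9 of the 20 genes and that of selenite at day 6 for 6.

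Several of the 20 genes rose and fell together from library to library. Over the 23 libraries, which include the 5 groups and share the same scaling, the highest Pearson correlation of log2 scaled levels between any pair of the 20 was 0.979, for CC84DRAFT_666498 and CC84DRAFT_1226245. CC84DRAFT_1180339 had 0.957 with CC84DRAFT_1226245 and 0.953 with CC84DRAFT_666498. Over all tested genes, the levels most like those of CC84DRAFT_1180339 were those of CC84DRAFT_979700 (0.966), CC84DRAFT_1226245 and STRG.1624 (0.953), the last a gene model that the authors added. Among the genes lower with selenite at day 6, CC84DRAFT_1135284 and CC84DRAFT_765646 had 0.944. The lowest correlation was −0.411, between CC84DRAFT_1135284 and CC84DRAFT_1159461. These values describe the 23 libraries and were not tested.

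**Figure D4:**
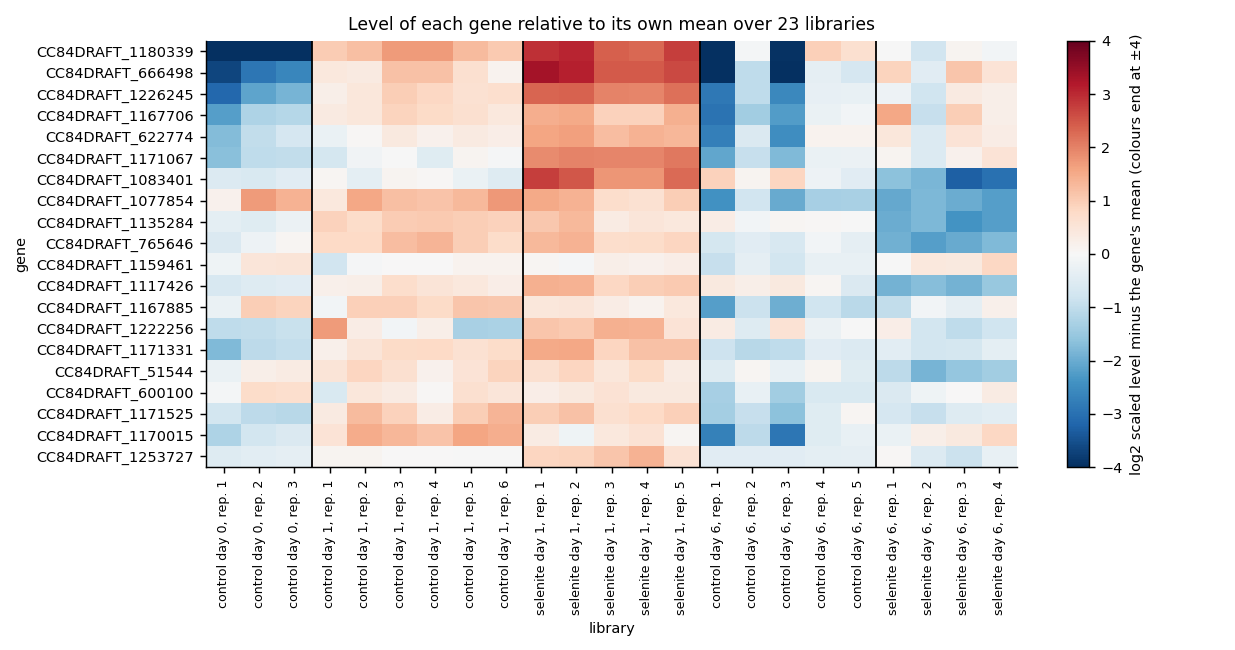
Log2 scaled level of each of the 20 genes in each of the 23 libraries, minus the gene's mean over libraries; red is above and blue below that mean, and colours end at ±4. Vertical lines divide the groups. The upper rows are blue at day 0 and in control day 6 replicates 1 and 3 and red with selenite at day 1, and CC84DRAFT_1083401, CC84DRAFT_1135284, CC84DRAFT_765646 and CC84DRAFT_1117426 are blue with selenite at day 6.

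The spread between replicates, after removing group means, was about as wide for these genes as for others. The median residual SD of log2 scaled levels was 0.495 for the 20 genes and 0.478 for all genes tested. It was lowest for CC84DRAFT_1253727 (0.215) and CC84DRAFT_1135284 (0.249) and highest for CC84DRAFT_1180339 and CC84DRAFT_666498 (1.06). In CPM, the ratio of the highest to the lowest library of a group had a median over the 20 genes of 1.37 in controls of day 0 and 2.59 in controls of day 6. Its extremes were 1.01 for CC84DRAFT_51544 at day 0 and 74.7 for CC84DRAFT_1180339 in controls of day 6.

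Set per kb of exon, the order of the 20 genes changed. CC84DRAFT_1180339 stayed first in the mean over groups, at 80548 CPM per kb, followed by CC84DRAFT_1083401 (17263), CC84DRAFT_666498 (14933), CC84DRAFT_1222256 (12986) and CC84DRAFT_1171067 (9657). Lowest by this measure was CC84DRAFT_1170015, with 1075 CPM per kb, close to CC84DRAFT_1171525 with 1089. At day 0 CC84DRAFT_1083401 was the highest of the 20 in CPM per kb (10746), and in the other 4 groups CC84DRAFT_1180339 was. If the 20 genes had been taken by their lowest group mean in CPM per kb, 13 would have been the same. The 20 genes had a median of 1530.5 exon bases, from 264 to 2909, beside 1367.5 for all genes tested, and 5 of the 20 had a single exon, beside 24.4%.

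**Figure D5:**
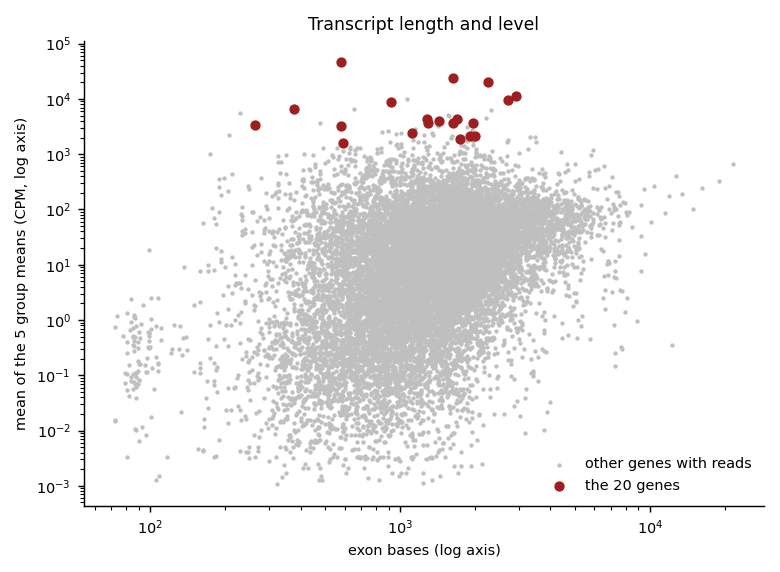
Mean of the 5 group means in CPM (log axis) against exon bases (log axis) for all genes with reads (grey) and the 20 genes (red). The 20 genes span 264 to 2909 exon bases, within the bulk of the other genes, and lie along its upper edge.

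The 20 genes were spread over 9 scaffolds, 10 on each strand. NW_017253360.1 held 9 of them, 45.0% of the 20 beside 14.0% of all genes, and NW_017253363.1 held 3. None were neighbours. The closest pair, CC84DRAFT_1077854 and CC84DRAFT_1226245, had 54 genes and 150991 bases between them. The median distance to the nearest gene was 274.5 bases, beside 240.0 for all genes tested. Those nearest genes had a median level of 19.2 CPM, from 0.154 to 949.9. The highest belonged to CC84DRAFT_1211420, 50 bases from CC84DRAFT_51544 on the same strand. CC84DRAFT_1226245 overlaps CC84DRAFT_1159567 on the other strand by 45 bases, a gene at 0.566 CPM.

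The authors' deposited tables can be set beside these values. In the authors' deposited table for day 1, 10 of the 20 genes were higher and 1 lower at an adjusted p under 0.05, beside 60.8% of the 12045 genes listed. In the authors' deposited table for day 6, 2 were higher and 5 lower, beside 47.6% of 12787. For CC84DRAFT_1180339 the authors' deposited table gives log2 fold changes of 1.46 at day 1 and −0.04 at day 6, with adjusted p-values of 3.58e-05 and 0.974. For CC84DRAFT_666498 at day 6 the authors' deposited table has 1.94 (adjusted p 0.0632), over the threshold, and for CC84DRAFT_1083401 it has 2.48 at day 1 and −2.65 at day 6. The authors' deposited time-course table lists 14 of the 20 genes, beside 30.4% of all genes, 7 in its cluster 5, 5 in cluster 9 and 2 in cluster 4. Cluster 9 holds CC84DRAFT_1135284, CC84DRAFT_765646, CC84DRAFT_1117426 and CC84DRAFT_51544 with CC84DRAFT_1171331, and cluster 4 holds CC84DRAFT_1170015 and CC84DRAFT_1167885. The R-squared scores in the authors' deposited table were 0.707 to 0.946 for these 14.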

How the data were processed

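RNA sequencing levels of 15164 genes in 23 libraries of 5 groups were used. The submitters' processing notes name edgeR 3.36.0, R 4.1.0, Subread 2.0.6 with featureCounts, STAR 2.7.1a and Trimmomatic 0.39; those notes, the labels and the file headers do not state the build used. The authors deposited CPM, each gene's reads scaled to a common library total, with no composition factor. The deposited count table served here for exon lengths and positions, since it gave numbers for 13 genes in the form used. Whole reads were recovered from the CPM steps: 100% of 348772 values came out whole within 1e-06 reads. Log2 fold changes and adjusted p-values of the authors, and the R-squared score of their time-course model, were copied from the deposited tables. Of per-library values, 46 columns were not used.

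Members and lists were chosen with earlier results of these data known. The main fit was limma 3.58.1 in R 4.3.3 with a variance trend, two-sided, on log2(scaled CPM + 0.5), where scaled CPM is CPM over a TMM factor of edgeR 4.0.16. It held 5 group means, no block and the 13676 genes kept by filterByExpr (minimum count 10, minimum total 15), with Benjamini-Hochberg adjustment over all of them. Such fold changes understate changes of low genes. Fitting was tested on simulated data. Alternatives were other scalings (library size alone, DESeq2 1.42.0 size factors, library size outside the 20 genes), pseudocounts, no filter, a replicate block, the compared groups alone, edgeR's quasi-likelihood test and limma-voom on recovered reads, and leaving out libraries. The text names the 10 genes highest in mean level, those with the largest called changes in each direction (4 for selenite comparisons, 2 for controls), the 5 with the smallest ratio between group means and the 3 on each side of the rule. These parts name 19 of the 20 genes, and CC84DRAFT_1171331 was added after its values were seen. Lists by product name, protein and promoter properties and protein identity needed sequences or names and were not analysed here, nor was sharing of reads with near-identical genes. Equal replicate numbers were not treated as pairs in the main fit. Correlations of deviations from group means were taken for same-numbered libraries. They were −0.02 to 0.02 between groups of day 1 and −0.01 to 0.09 between those of day 6. Between controls they were 0.02 to 0.33 for day 0 and day 1, and −0.21 to 0.33 for day 0 and day 6. In no comparison did every pair pass 0.1. Libraries with different numbers were not compared, so these values do not settle whether some libraries were paired.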

Additional observations from a re-analysis of the deposited data

Results flagged for a closer look

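Of 80 sets of 4 to 6 libraries (the 20 genes in each group of that size), 2 held a library far from the rest on the log2 scale of scaled levels, by Dixon's test at 95%, which chance gives in about 1 in 20 sets. CC84DRAFT_1159461 had 1749 CPM in control day 1 replicate 1, while the other 5 controls of that day had 2526 to 3061 CPM. CC84DRAFT_1167885 had 2657 CPM in control day 1 replicate 1, while the other 5 controls of that day had 4342 to 5595 CPM. Both genes were lowest in the same library, and no cause was tested.

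The selenite change differed between day 6 and day 1 for 9 of the 20 genes by the interaction term of the limma fit. It was lower at day 6 for 7 genes, by log2 differences of −5.05 ± 0.57 for CC84DRAFT_1083401 (limma adjusted p 2.6e-07), −1.93 ± 0.43 for CC84DRAFT_1135284 (limma adjusted p 0.000813), −1.54 ± 0.43 for CC84DRAFT_765646 (limma adjusted p 0.00523), −2.59 ± 0.41 for CC84DRAFT_1117426 (limma adjusted p 1.99e-05), −1.77 ± 0.63 for CC84DRAFT_1222256 (limma adjusted p 0.0251), −1.25 ± 0.37 for CC84DRAFT_51544 (limma adjusted p 0.00836) and −0.92 ± 0.31 for CC84DRAFT_1253727 (limma adjusted p 0.0183). It was higher at day 6 for 2 genes, by 1.51 ± 0.52 for CC84DRAFT_1167885 (limma adjusted p 0.0214) and 2.78 ± 0.57 for CC84DRAFT_1170015 (limma adjusted p 0.000367). Of these 9, CC84DRAFT_1083401, CC84DRAFT_1117426 and CC84DRAFT_1170015 were called on both days in opposite directions. The difference was not called for CC84DRAFT_1167885 without selenite day 6 replicate 4 or without control day 6 replicates 1 and 3 (1.03), for CC84DRAFT_1222256 without selenite day 6 replicate 3, without those control replicates (−1.49) or in edgeR (−1.38, adjusted p 0.0769), and for CC84DRAFT_1253727 without selenite day 6 replicate 3 or with library size alone (−0.68).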

How the results depend on the processing

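Of 42 called values of single genes in the 5 comparisons, 26 kept their call and direction under every alternative run and none reversed: 4 of 10 for selenite at day 1, 6 of 10 at day 6, 6 of 9 for the difference between days, 8 of 10 and 2 of 3 for controls at day 1 and day 6 against day 0. The rule would take 57 genes at 500 CPM, 6 at 2000 CPM 13 at 1000 CPM in every library and 14 in scaled CPM, and 19 to 20 with 1 library left out. Counts of called genes with 1 library left out were 5 to 10 at day 1 (5 without selenite replicate 2, 6 without replicate 1 or 5), 8 to 13 at day 6, 7 to 9 for the difference, 8 to 10 for controls to day 1 and 2 to 4 for controls to day 6. At day 6, 6 genes were called with the compared groups alone and 6 without control replicates 1 and 3 together. More than the 10 of the main fit were called in limma-voom (14), in edgeR (12) and with library size alone (12). From day 0 to day 6 in controls, 6 were called with library size alone, 9 with library size outside the 20 genes (chosen after seeing the data), 5 in edgeR and 6 in limma-voom. The value of CC84DRAFT_1180339 turned at day 6 to −0.020 in edgeR and −0.70 without control replicates 1 and 3, and its difference between days (0.04 ± 1.48) to −0.21 with DESeq2 size factors, −1.38 in edgeR, −2.06 without control day 6 replicates 1 and 3, and −0.95 to 0.68 with 1 library left out; neither was called. Summed in scaled CPM, which no longer adds up to the library total and so gives no share of reads, the 20 genes came to 5.72% of that total at day 0 and 21.4% in controls and 52.0% with selenite at day 1. Without CC84DRAFT_1180339 the shares of reads were 11.95% and 21.1% at day 1. With 1 library left out the shares were 6.56% to 6.89% at day 0, 17.2% to 18.0% and 31.4% to 32.9% at day 1, and 10.8% to 13.6% and 14.4% to 16.99% at day 6, control before selenite. For these changes the cause was not tested. The replicate number was also used as a block, though the correlations did not settle whether it pairs libraries. The called genes were then 9 at day 1, 12 at day 6 and 9 for the difference. For controls they were 10 to day 1 and 5 to day 6. With this block the rises of CC84DRAFT_1167706 in controls to day 1 and of CC84DRAFT_1171331 with selenite at day 1 were not called.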
